A study of Mus musculus with 11 samples.

Results

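The PRC1 core genes Ring1, Rnf2, Pcgf1, Pcgf2, Pcgf3, Pcgf5, Pcgf6, Bmi1, Rybp and Yaf2 were followed through the RNA-seq and ChIP-seq data of a study of CBX6 in mouse embryonic stem cells (ESCs). They were chosen by name, as the RING, PCGF and RYBP subunits of the Polycomb repressive complex PRC1, and all 10 were found among the 23288 gene symbols of the expression table. The cells were of the E14Tg2A line, a male mouse ESC line grown here without feeder cells in serum and leukemia inhibitory factor. RNA-seq compared ESCs infected with lentivirus carrying a control shRNA (shCtl, 2 libraries) with ESCs infected with an shRNA against Cbx6 (shCbx6, 2 libraries), and which of the study's Cbx6 shRNAs each library received is not given in the sources used here. ChIP-seq peak lists were analysed for CBX6 (2 replicates, anti-HA, in ESCs whose own Cbx6 gene carries a C-terminal HA tag), for CBX7 (1 sample) and for RING1B (1 sample), none of them labelled with an shRNA. The labels do not say whether the RNA libraries came from separate infections, so p-values measure only the spread between these libraries.

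PRC1 is an E3 ubiquitin ligase that marks histone H2A (H2AK119ub) at repressed genes. Its catalytic core pairs RING1B (encoded by Rnf2) or RING1A (encoded by Ring1) with a single PCGF protein, and the PCGF protein decides which further subunits join. PCGF2 (MEL18) and BMI1 (PCGF4) are the PCGF proteins of canonical PRC1, which takes up a CBX protein such as CBX6 or CBX7. PCGF1, PCGF3, PCGF5 and PCGF6 form variant complexes, in which RYBP or its paralog YAF2 takes the place of the CBX protein.

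The promoters of 3 of the genes are shown because they carry the main contrast of the ChIP-seq data. Bmi1 and Yaf2 had a RING1B peak over their start and Rnf2, the most abundant of the 10 transcripts in shCtl, had none. Each sequence holds the bases just before the outermost GENCODE M1 start of the gene, 5′ to 3′ in the direction of transcription, read from the mm9 genome with every CpG in capitals, 250 bases for Bmi1 and Rnf2 and 123 bases for Yaf2.
Bmi1, chr2:18598395-18598644, plus strand: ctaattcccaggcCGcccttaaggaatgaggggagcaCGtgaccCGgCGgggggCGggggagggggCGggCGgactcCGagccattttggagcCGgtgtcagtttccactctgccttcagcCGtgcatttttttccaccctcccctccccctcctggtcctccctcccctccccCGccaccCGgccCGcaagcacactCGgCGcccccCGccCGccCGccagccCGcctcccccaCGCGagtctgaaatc
Yaf2, chr15:93167367-93167489, minus strand: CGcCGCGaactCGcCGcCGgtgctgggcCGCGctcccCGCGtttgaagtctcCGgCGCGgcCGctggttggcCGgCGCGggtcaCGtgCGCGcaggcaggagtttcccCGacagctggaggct
Rnf2, chr1:153347954-153348203, minus strand: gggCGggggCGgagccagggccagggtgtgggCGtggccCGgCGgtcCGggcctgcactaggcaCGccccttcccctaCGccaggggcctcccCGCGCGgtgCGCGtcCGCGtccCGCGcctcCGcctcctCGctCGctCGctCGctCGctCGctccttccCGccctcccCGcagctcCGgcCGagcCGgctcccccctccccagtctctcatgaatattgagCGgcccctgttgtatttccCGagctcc
The stretches of Bmi1, Yaf2 and Rnf2 held 21, 21 and 31 CpG, beside a median of 10 CpG in the 250 bases before the start of 20240 coding genes.

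Levels are given in FPKM, which counts fragments per length of transcript, relative to all mapped fragments in that library, so they can be compared between genes within a library. Between libraries they compare shares of the mapped fragments and not amounts of RNA. All 10 genes were read above 1 FPKM in every library. Their levels spanned a wide range, from Rnf2 at 57.1 ± 2.57 FPKM (SD, n = 2 libraries) to Bmi1 at 1.67 ± 0.390 FPKM in shCtl. Next to Rnf2 stood Rybp at 44.3 ± 0.186, then Pcgf2 at 37.4 ± 5.50 and Pcgf6 at 33.6 ± 2.48 FPKM. Pcgf1 at 17.2 ± 2.19 and Pcgf3 at 13.9 ± 0.0692 FPKM were in the middle of the order. Pcgf5 at 5.31 ± 0.994, Ring1 at 4.34 ± 0.495 and Yaf2 at 1.94 ± 0.0476 FPKM followed above Bmi1. Among neighbours in this order, the ranges of the 2 shCtl libraries overlapped for Pcgf2 and Pcgf6, for Pcgf5 and Ring1, and for Yaf2 and Bmi1. Over all 4 libraries the ranges of Rnf2 and Rybp, and of Pcgf1 and Pcgf3, overlapped as well. In shCbx6 the means placed Rybp before Rnf2 and Pcgf6 before Pcgf2, with the other 6 genes in the same order. Both exchanges rest on shCbx6 replicate 2, since in shCbx6 replicate 1 Rnf2 (43.9 FPKM) was above Rybp (43.2 FPKM) and Pcgf2 (41.8 FPKM) above Pcgf6 (38.5 FPKM).

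**Figure D1:**
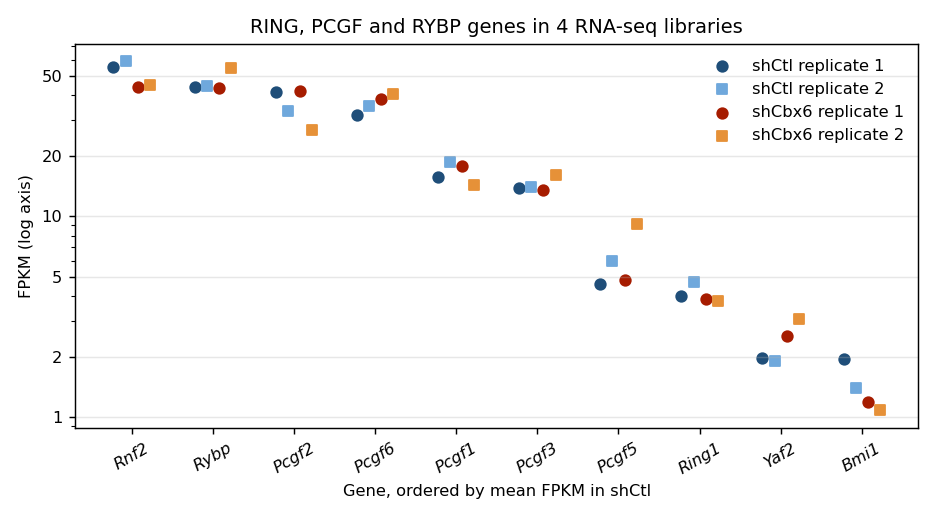
FPKM (log axis) of the 10 genes in each of the 4 RNA-seq libraries, ordered by the mean of shCtl; each point is 1 library. Rnf2, Rybp, Pcgf2 and Pcgf6 lie above 25 FPKM in all libraries, while Yaf2 and Bmi1 lie between 1.08 and 3.08 FPKM.

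Within each family the transcripts were unequal. Rnf2 exceeded Ring1 by 13.8 and 12.5 times in shCtl replicates 1 and 2 and by 11.3 and 11.9 times in shCbx6 replicates 1 and 2. Both shCbx6 ratios lay below both shCtl ratios, with means of 13.2 ± 0.912 and 11.6 ± 0.391 (SD, n = 2 each). Rybp exceeded Yaf2 by 22.4 and 23.3 times in shCtl and by 17.0 and 17.7 times in shCbx6, again without overlap, with means of 22.8 ± 0.658 and 17.3 ± 0.485. An exact permutation test of 2 libraries against 2, two-sided, cannot give a p below 0.3333, and both ratios reached 0.3333.

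Of the summed FPKM of the 6 PCGF genes in shCtl, Pcgf2 made up 34.3% ± 5.00 (SD, n = 2), Pcgf6 30.8% ± 2.32, Pcgf1 15.7% ± 2.03, Pcgf3 12.7% ± 0.0821, Pcgf5 4.87% ± 0.919 and Bmi1 1.53% ± 0.356. Of the canonical pair, Pcgf2 was thus by far the more abundant. The sum itself came to 109.1 and 108.9 FPKM in the shCtl libraries and 117.6 and 107.9 FPKM in the shCbx6 libraries. The share of Pcgf6, the PCGF protein of the variant complex that contains MGA and L3MBTL2, was 29.2 and 32.5% in shCtl and 32.7 and 37.5% in shCbx6, with both shCbx6 values above both shCtl values by a narrow margin. The Bmi1 share was 1.78 and 1.28% in shCtl and 1.01 and 1.00% in shCbx6, without overlap. Shares of the other 4 genes overlapped between the groups. None of the 6 shares could pass a threshold of 0.05 in this design (exact permutation test, two-sided, p = 0.3333 for Pcgf6 and Bmi1, 0.667 for Pcgf1 and Pcgf2, and 1 for Pcgf3 and Pcgf5).

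**Figure D2:**
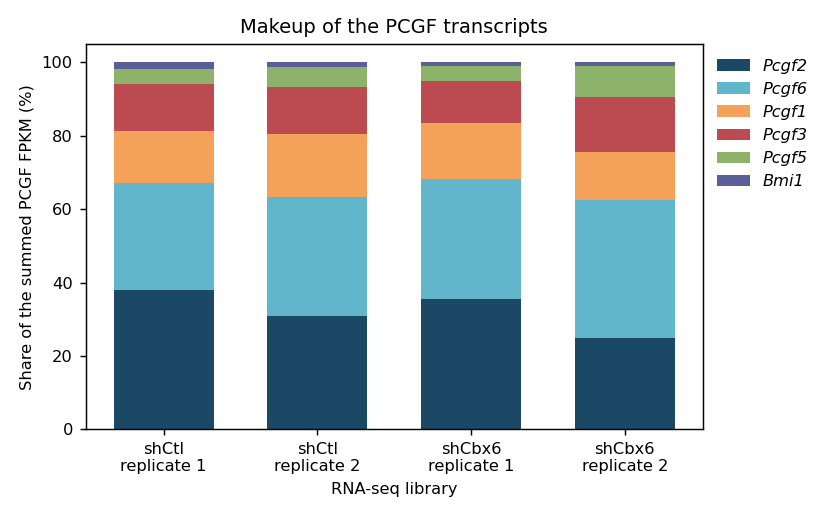
Share of each PCGF gene in the summed FPKM of the 6 PCGF genes (%), 1 stacked bar per library. Pcgf2 and Pcgf6 together make up most of each bar; the Pcgf2 share is 24.9% in shCbx6 replicate 2 and between 30.8 and 37.9% in the other libraries.

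The knockdown was read first on its target. Cbx6 stood at 17.4 and 14.9 FPKM with the control shRNA and at 9.53 and 5.40 FPKM with the Cbx6 shRNA, without overlap and with a log2 fold change of −1.06 (SE, the standard error, 0.263, limma adjusted p = 0.247). The mean was lower by 53.8%, more so in shCbx6 replicate 2. The libraries had FPKM sums of 678246 to 734862 and relative depths, estimated from low values, of 0.956 to 1.13. All 8 ESC markers were at or above 1 FPKM in every library, with sums of 7599 to 8650 FPKM in shCtl and 5798 to 6895 FPKM in shCbx6, and 7 of the 8 lay lower in both shCbx6 libraries. The 6 trophectoderm markers summed to 13.5 and 17.9 FPKM in shCtl, 34.5 FPKM in shCbx6 replicate 1 and 253 FPKM in shCbx6 replicate 2, with 5 of the 6 higher without overlap and Cdx2 and Elf5 below 1 FPKM in all libraries. Eomes, which is also in the mesoderm list, cannot exceed the low sums of that list given below. The trophectoderm sum thus rested mainly on Tfap2c, Krt8 and Krt18. Primitive endoderm markers were all 6 below 1 FPKM, as were 4 of the 5 mesoderm markers (T, Mixl1, Mesp1 and Kdr) and the fibroblast markers Col1a1, Col1a2, Col3a1 and Postn, and Lum was listed at 0 in all libraries. Fibroblast sums of 47.2 to 57.0 FPKM in shCtl overlapped those of 39.7 to 55.9 FPKM in shCbx6, with 4 of the 8 markers higher and 1 lower without overlap. Mesoderm sums were 1.83 to 2.58 FPKM in shCtl and 2.41 to 3.10 FPKM in shCbx6, with 3 markers higher and 1 lower without overlap. Neural sums were 34.6 to 41.9 FPKM in shCtl and 27.6 to 35.5 FPKM in shCbx6, with 2 of the 5 markers higher and 2 lower without overlap. Of all genes tested in limma, 18.9% were higher and 24.4% lower without overlap. Several of the markers were under 1 FPKM, so the fibroblast, mesoderm and neural counts are not read as results of their own. The part of these marker differences in the results below was not tested, and in bulk RNA a change in the makeup of the culture and a change of RNA per cell cannot be told apart.

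Which of the 10 subunit genes differed after the knockdown was asked with limma on log2(FPKM + 1), fitted to all 11592 genes whose mean reached 1 FPKM in shCtl or shCbx6. None of the 10 passed a Benjamini-Hochberg adjusted p of 0.05 in limma, and 1 (Rnf2, unadjusted p = 0.0456 in limma) had an unadjusted p under 0.05. Among all genes tested 0.0949% passed the adjusted threshold and 11.7% the unadjusted one. Of the 10 genes, 2 (Pcgf6 and Yaf2) were higher and 3 (Rnf2, Ring1 and Bmi1) lower in shCbx6 without overlap of the groups, where 18.9% of all genes tested were higher and 24.4% lower in that way. No ratio of the group means reached 1.5-fold in either direction, against 7.63% of all genes up and 6.56% down. At 1.3-fold in either direction 3 of the 10 passed, where 25.3% of all genes did. Leaving out single libraries moved these counts. Without shCbx6 replicate 1, Pcgf5 (ratio 1.73), Yaf2 (1.59) and Bmi1 (0.650) were past 1.5-fold, as were 22.1% of all genes then tested. In that setting 2 of the 10 had an unadjusted limma p under 0.05, as had 18.0% of all genes, with the spread taken from the shCtl libraries alone and the lone shCbx6 library assumed to vary like them. Without shCtl replicate 2, Pcgf5 (1.52) and Bmi1 (0.586) were past 1.5-fold, as were 17.5% of all genes. Without any 1 of the libraries other than shCbx6 replicate 1, 0 of the 10 had an unadjusted p under 0.05 in limma. The median log2 fold change was −0.01 over the 10 genes and −0.01 over all genes tested.

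**Figure D3:**
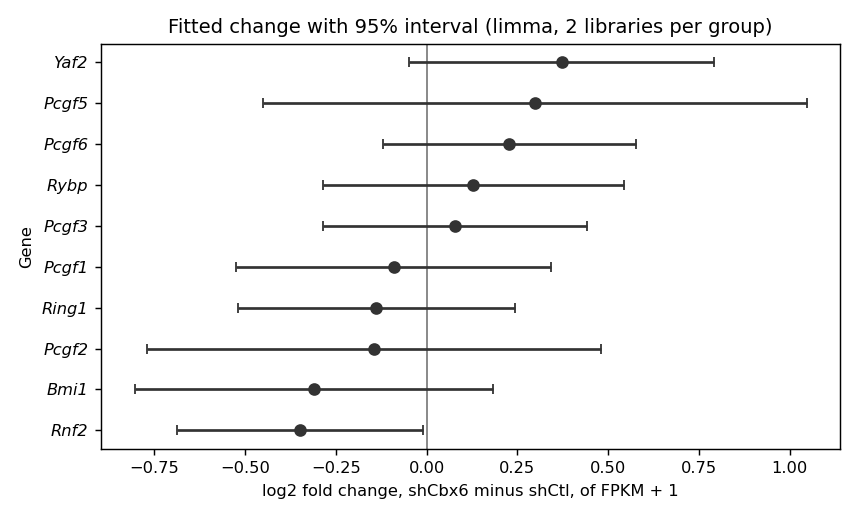
Fitted log2 fold change, shCbx6 minus shCtl, of FPKM + 1 for each of the 10 genes; bars are 95% intervals from limma (n = 2 libraries per group). The interval of Rnf2 ends at −0.01, just below 0, and the intervals of the other 9 genes cross 0.

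The RING genes, which carry the ligase activity, both lay lower in shCbx6. Rnf2 was read at 55.2 and 58.9 FPKM with the control shRNA and at 43.9 and 45.2 FPKM with the Cbx6 shRNA. The groups were well apart, and the 2 libraries of each group lay close together. Its mean was lower by 21.9%, a log2 fold change of −0.35 (SE 0.134, 95% interval −0.69 to −0.01, limma adjusted p = 0.414). Ring1, which encodes the less abundant catalytic subunit, was read at 3.99 and 4.69 FPKM with the control shRNA and at 3.88 and 3.81 FPKM with the Cbx6 shRNA. The gap between the groups was small beside the distance between the shCtl libraries, and the log2 fold change was −0.14 (SE 0.151, limma adjusted p = 0.788). Together the RING genes summed to 59.2 and 63.6 FPKM with the control shRNA and to 47.8 and 49.0 FPKM with the Cbx6 shRNA.

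Neither PCGF gene of canonical PRC1 passed the test. Pcgf2 was read at 41.3 and 33.5 FPKM with the control shRNA and at 41.8 and 26.8 FPKM with the Cbx6 shRNA, so replicate 1 of the 2 groups was nearly equal and replicate 2 was the lower library in both. Its log2 fold change was −0.15 (95% interval −0.77 to 0.48, limma adjusted p = 0.875). Bmi1, best known as a repressor of the Cdkn2a locus, was read at 1.94 and 1.39 FPKM with the control shRNA and at 1.19 and 1.08 FPKM with the Cbx6 shRNA. The groups did not overlap, and the ratio of the means was 0.683. The log2 fold change of −0.31 had a SE of 0.195 and a limma adjusted p of 0.612, and it was −0.50 with a pseudocount of 0.1 in place of 1.

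Of the variant PCGF genes, Pcgf6 alone separated the groups. It was read at 31.8 and 35.3 FPKM with the control shRNA and at 38.5 and 40.5 FPKM with the Cbx6 shRNA, a mean 17.5% higher with a log2 fold change of 0.23 (SE 0.138, limma adjusted p = 0.605). Pcgf1, the PCGF protein of the BCOR and KDM2B complex, was read at 15.6 and 18.7 FPKM with the control shRNA and at 17.8 and 14.4 FPKM with the Cbx6 shRNA, with overlap. Pcgf3 was read at 13.8 and 13.9 FPKM with the control shRNA and at 13.5 and 16.0 FPKM with the Cbx6 shRNA, on both sides of the shCtl values. Pcgf5 was read at 4.61 and 6.01 FPKM with the control shRNA and at 4.84 and 9.18 FPKM with the Cbx6 shRNA. The spread of Pcgf5 within shCbx6 was larger than the difference of the means, and its log2 fold change of 0.30 had the widest interval of the 10 genes, −0.45 to 1.05 (limma adjusted p = 0.765).

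RYBP and YAF2 bridge the RING protein to DNA-binding and histone partners and stimulate the ligase of variant PRC1. Rybp was read at 44.1 and 44.4 FPKM with the control shRNA and at 43.2 and 54.4 FPKM with the Cbx6 shRNA, so shCbx6 replicate 2 alone stood above the rest. Yaf2 was read at 1.97 and 1.90 FPKM with the control shRNA and at 2.55 and 3.08 FPKM with the Cbx6 shRNA. Both shCbx6 values lay above both shCtl values, and its mean was 1.45 times that of shCtl, the largest ratio upward among the 10 genes with all libraries in. The ratio of Pcgf5 was larger without shCbx6 replicate 1 (1.73 against 1.59 for Yaf2) and without shCtl replicate 2 (1.52 against 1.43). The log2 fold change of Yaf2 was 0.37 (SE 0.166, 95% interval −0.05 to 0.79, limma adjusted p = 0.476).

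In shCbx6 replicate 2, the library with the high trophectoderm sum and the lower Cbx6 level, 9 of the 10 genes had their most extreme value of the 4 libraries, the highest for Rybp, Pcgf3, Pcgf5, Pcgf6 and Yaf2 and the lowest for Pcgf1, Pcgf2, Ring1 and Bmi1. Of all genes tested, 61.3% had their highest or lowest value in that library. Without that library the log2 fold changes were −0.03 for Rybp, −0.04 for Pcgf3, −0.10 for Pcgf5, 0.05 for Pcgf1 and 0.17 for Pcgf2, each of the opposite sign. For the 5 genes whose groups do not overlap, whose sign cannot turn when 1 library is left out, the log2 fold changes with each library left out ran from −0.39 to −0.30 for Rnf2, from −0.23 to −0.04 for Ring1, from −0.46 to −0.16 for Bmi1, from 0.15 to 0.30 for Pcgf6 and from 0.27 to 0.47 for Yaf2.

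Other Polycomb genes were counted in the same fit. Of 54 genes of canonical PRC1, variant PRC1, PRC2 and H2A deubiquitination, 53 were in the table and 48 were tested. None passed limma's adjusted threshold, while 1 higher and 4 lower had an unadjusted p under 0.05, 9 were higher and 11 lower without overlap, and 2 were up and 3 down by 1.5-fold. Over all genes tested, 11.7% had an unadjusted p under 0.05 in limma, 18.9% were higher and 24.4% lower without overlap, and 7.63% were up and 6.56% down by 1.5-fold, so the 48 genes are read against these shares and not as a result of their own. Their median log2 fold change was −0.04. By complex, 7 of 11 canonical genes, 24 of 24 variant genes, 11 of 12 PRC2 genes and 6 of 7 deubiquitination genes were tested. The tested gene with the largest rise in log2 fold change without overlap was Bcor, the corepressor that joins PCGF1 in variant PRC1, at 7.11 and 6.25 FPKM with the control shRNA and at 9.27 and 11.8 FPKM with the Cbx6 shRNA (log2 fold change 0.58, SE 0.168, limma adjusted p = 0.301). The tested gene with the largest fall in log2 fold change without overlap was the targeted Cbx6 itself.

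Peaks were counted at a gene where they touched the stretch from 2500 bp upstream of its start to its end on mm9, with GENCODE M1 coordinates. CBX6 replicate 1, a list of 21865 peaks, had a peak at all 10 genes, and 78.9% of the 11357 genes with coordinates that were tested in limma had one too. CBX6 replicate 2, with 5103 peaks, had a peak at 2 of the 10 genes, Bmi1 and Yaf2, against 13.0% of those genes. CBX7, with 5081 peaks, had a peak at 4 genes, Bmi1, Yaf2, Pcgf5 and Rybp, against 12.8%. RING1B, with 4180 peaks, had a peak at 2 genes, Bmi1 and Yaf2, against 10.8%. Over an annotated start, of a coding transcript or of the gene, the peaks numbered 10 genes for CBX6 replicate 1 (71.0% of the genes tested) and 2 genes each, Bmi1 and Yaf2, for CBX6 replicate 2 (7.94%), CBX7 (9.78%) and RING1B (9.40%). Scores of peaks are the authors' MACS scores, which rise with the strength of a peak and are comparable only within a list.

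**Figure D4:**
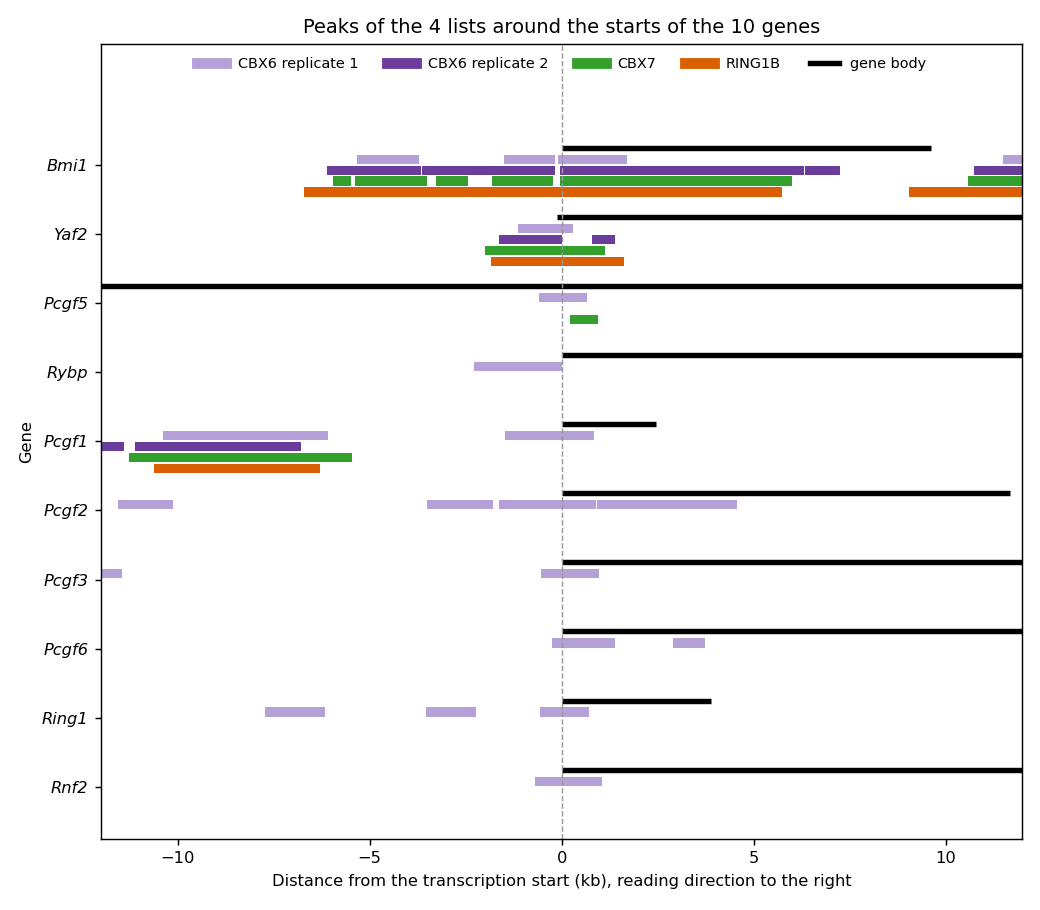
Peaks of the 4 lists (coloured bars) within 12 kb of the transcription start of each of the 10 genes, drawn to scale with the gene body in black; for Yaf2 and Pcgf5 the start drawn is the inner of their 2 annotated starts. Bmi1 and Yaf2 carry bars of all 4 lists at the start, Pcgf5 bars of CBX6 replicate 1 and CBX7, and the other 7 genes a bar of CBX6 replicate 1 alone at the start, with bars of all 4 lists farther upstream of Pcgf1.

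Bmi1 (chromosome 2, 18598645 to 18608256, plus strand) lay under broad peaks. The RING1B peak over its start ran from 18591937 to 18604382, a width of 12446 bp that ranked 55 of the 4180 RING1B peaks, with a score of 3100. That score recurs at the top of the list, in 507 RING1B peaks, so peaks that share it cannot be ranked by strength. A wider RING1B peak of 14704 bp (rank 29 by width) began at 18607694, inside the last part of the gene, and ran downstream past it to 18622397. RING1B peaks covered 72.7% of the Bmi1 window, CBX6 replicate 2 peaks 79.2%, CBX7 peaks 63.6% and CBX6 replicate 1 peaks 25.9%. The CBX6 replicate 2 peak over the start was 6358 bp wide with a score of 3100, and the CBX7 peak there was 6042 bp wide with a score of 2249. In CBX6 replicate 1 the peak over the start had a score of 191, and an upstream peak from 18593323 to 18594931 had a score of 549. Upstream peaks of all 4 lists also lay over Commd3, the gene just upstream of Bmi1, so the RING1B peak over the Bmi1 start belonged to both genes. Commd3, named because of this position, was read at 5.31 and 7.27 FPKM with the control shRNA and at 5.55 and 8.67 FPKM with the Cbx6 shRNA, above the level of Bmi1 in each library and with overlap between the groups.

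Yaf2 (chromosome 15, 93114709 to 93167366, minus strand) had narrower peaks, at and near its start. The RING1B peak was 3459 bp wide with a score of 786, and the CBX7 peak was 3125 bp wide with a score of 536. CBX6 had a peak of 1648 bp and score 388 over the start in replicate 2, with a second of score 106 inside the gene, and a peak of 1448 bp and score 203 in replicate 1. The RING1B, CBX7 and CBX6 replicate 2 scores over the start were each above the median of their list, at 402, 300.4 and 156. The peaks covered 2.63 to 6.27% of the long Yaf2 window.

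At the remaining 8 genes RING1B and CBX6 replicate 2 had no peak in the window. The CBX7 peak at Pcgf5 (chromosome 19, 36453557 to 36530682, plus strand) was 738 bp wide, began at 36484458, just past the second annotated start at 36484238, and had a score of 66.7. The CBX7 peak at Rybp (chromosome 6, 100178560 to 100237435, minus strand) was 749 bp wide, lay 26110 bp inside the gene and had a score of 55.5. Both scores were far below the list median of 300.4, and neither peak was counted within 2500 or 5000 bp of the outermost start or at a score of 100 or more, which leaves Bmi1 and Yaf2 for CBX7. At Rnf2 (chromosome 1, 153316536 to 153347953, minus strand) the only peak was of CBX6 replicate 1, 1741 bp wide with a score of 152. Limited to peaks found in both CBX6 replicates, the 10 genes of CBX6 replicate 1 came down to 2, Bmi1 and Yaf2. Upstream of Pcgf1 (chromosome 6, 83028380 to 83030841, plus strand), peaks of all 4 lists lay outside its window around the homeobox gene Tlx2. The CBX7 peak there ran from 83017099 to 83022931, and it and the RING1B peak had scores of 3100. Tlx2, named because of this position, was at 0.0737 and 0.121 FPKM in shCtl and listed at 0 in both shCbx6 libraries, while Pcgf1 stood above 14 FPKM throughout.

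The 2 genes with RING1B peaks were the lowest of the 10 in FPKM. Over all genes with coordinates the share with a RING1B peak also went down as the level rose above 1 FPKM, from 25.2% of the 1865 genes at 1 to 3 FPKM in shCtl, the bin of Bmi1 and Yaf2, to 11.4% at 3 to 10 FPKM (Ring1 and Pcgf5), 5.01% at 10 to 30 FPKM (Pcgf1 and Pcgf3) and 2.20% of the 2870 genes at 30 FPKM or more (Rnf2, Rybp, Pcgf2 and Pcgf6). Genes above 0 and under 1 FPKM had 34.4% and genes listed at 0 had 8.01%. CBX6 replicate 1 went the other way, from 72.3% at 1 to 3 FPKM to 82.8% at 30 FPKM or more. Among the 10 genes, the pair with RING1B peaks did not move one way in shCbx6, since both Bmi1 values lay below and both Yaf2 values above those of shCtl.

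**Figure D5:**
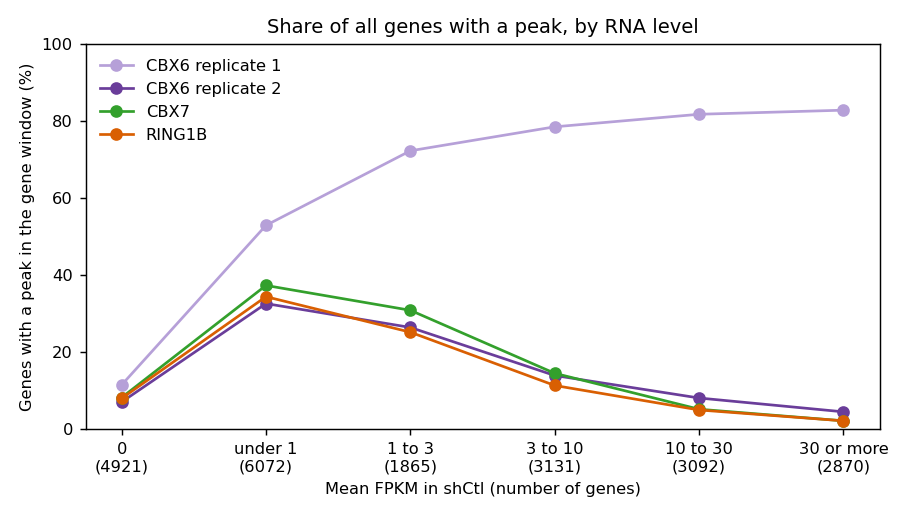
Share of all genes with coordinates that had a peak in the gene window (%), by mean FPKM in shCtl (number of genes in brackets), 1 line per peak list. The RING1B line runs from 34.4% above 0 and under 1 FPKM to 2.20% at 30 FPKM or more, and the CBX6 replicate 1 line rises to 82.8%.

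By median, the promoters of the 10 genes held more CpG than those of genes tested in limma, and high counts occurred with and without RING1B peaks. Pcgf3 and Pcgf6, with 16 CpG, were close to the median of genes tested. For the 10 genes CpG were counted at the outermost coding start under a CBX6 replicate 1 peak, and for other genes at the outermost coding start. The 10 genes and the other genes are thus compared at starts chosen by unlike rules. At Yaf2 and Pcgf5 the start used was the inner of 2 annotated starts, so their stretches of 250 bases lie partly or wholly inside the gene. In the 250 bases before the start the number of CpG ran from 16 in Pcgf3 and Pcgf6 to 49 in Rybp, with 48 in Yaf2 and 21 in Bmi1. Their median was 26.5, against 15 in genes tested in limma, 15 in genes with a RING1B peak and 10 in all coding genes. Within 500 bp on either side of the start, the ratio of observed to expected CpG ran from 0.688 in Pcgf3 to 1.09 in Yaf2, with a median of 0.932, against a median of 0.739 in genes tested and 0.693 in genes with a RING1B peak. Pcgf3 was thus below both of these medians. Rybp and Yaf2, paralogs with the second highest and second lowest mean FPKM in shCtl, had the 2 highest CpG counts. An E-box, CACGTG, which reads the same on both strands and holds a CpG, stood in 2 of the 10 promoters of 250 bases, Bmi1 and Yaf2, and in 6.80% of all coding promoters and 9.69% of those of genes with a RING1B peak. In the sequences printed above it appears as caCGtg. The letters TTCCCGC, an E2F motif searched on both strands, stood in Rnf2 and Pcgf5 and in 5.03% of all coding promoters. A match is a description of the sequence and does not show that a factor binds there.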

How the data were processed

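RNA-seq was analysed from 4 libraries and ChIP-seq from 4 peak lists, out of 11 samples of the series, and the anti-HA control and the IgG samples were not analysed here. The authors aligned paired-end RNA reads to mm9 with TopHat, kept uniquely mapping reads and estimated FPKM for RefSeq transcripts with Cufflinks, and the deposited table gives FPKM per gene symbol, with no counts. How transcripts were combined is not given in the sources used here. FPKM are relative to each library, so a change of total RNA cannot be seen, and the number of reads is unknown. The authors aligned ChIP reads to mm9 with Bowtie and called peaks per sample with MACS, and the deposited score of each peak is the MACS score. The paper names parental ESCs as the control of the anti-HA ChIP-seq, and sample titles name IgG samples for CBX7 and RING1B. Tool versions, and which control entered each peak call, are not given in the sources used here, and the depth of the ChIP samples is unknown.

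Groups came from the sample titles. limma 3.58.1 (R 4.3.3; lmFit and eBayes with a trend) was fitted to log2(FPKM + 1) of genes whose mean reached 1 FPKM in shCtl or shCbx6, with Benjamini-Hochberg adjustment over 11592 genes. The pseudocount of 1 makes the fold changes of low genes such as Bmi1 and Yaf2 too small. Of 23290 entries, 25 carry dates in place of symbols. Shares and ratios were compared with exact permutation tests. In simulated data with 11592 genes and 200 changed, the shCbx6 against shCtl fit recovered 22.5% of 2-fold, 89.7% of 4-fold and 95.8% of 8-fold changes, with 7 false calls. Most changes of 2-fold or less would thus be missed.

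Genes were placed on mm9 with GENCODE M1, in place of RefSeq, where 21951 symbols had coordinates (21149 by name and 802 by synonym). A peak counted with at least 1 bp of overlap (Python 3.11.15, numpy 2.4.6, pandas 2.3.3, matplotlib 3.10.9). Named were all 10 genes, Cbx6, the Polycomb genes past the limma threshold, and the largest rise and largest fall among tested Polycomb genes whose groups do not overlap. The members, lists and tests were chosen with earlier results of these data known. Alternatives covered the pseudocount, the filter, normalization, each library left out, a replicate term, the fold threshold, the window and the peak score.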

Additional observations from a re-analysis of the deposited data

How the results depend on the processing

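Of the 10 genes, 0 passed limma's adjusted threshold under every alternative run (pseudocount 0.1, no filter, quantile normalization, median-ratio scaling, a replicate block and each library left out), while the number of all genes called ran from 10 to 398, against 11. With the unadjusted p it was 1. With a replicate block, where the deviations of same-numbered libraries correlated at r = 0.27 over 2 pairs, which is too few to count as pairing, 388 genes were called, the lowest adjusted p of the 10 genes was 0.118 (limma), and 0 of the 10 and 1 Polycomb gene, Cbx6 (log2 fold change −1.06, adjusted p = 0.0425), passed. Leaving out 1 library gave 0 to 1 Polycomb genes, again Cbx6, without shCbx6 replicate 1 (adjusted p = 0.0296). With a library left out, 1 group holds a single library, which is assumed to vary like the other group. By 1.5-fold, 0 to 3 of the 10 passed: Pcgf5 and Bmi1 without shCtl replicate 2 (ratios 1.52 and 0.586) and Pcgf5, Yaf2 and Bmi1 without shCbx6 replicate 1 (ratios 1.73, 1.59 and 0.650). At 1.3-fold 3 passed, Pcgf5, Yaf2 and Bmi1, against 25.3% of all genes tested. Of 90 log2 fold changes under alternatives, 7 turned sign, all with a library left out, over which Pcgf1 ran from −0.24 to 0.0546, Pcgf2 from −0.46 to 0.17, Pcgf3 from −0.0365 to 0.19, Pcgf5 from −0.10 to 0.70 and Rybp from −0.0339 to 0.29. The share differences of Pcgf2, Pcgf3 and Pcgf5 also turned sign without shCbx6 replicate 2 (1.26, −1.25 and −0.754 percentage points, against −4.09, 0.415 and 1.44). Genes with a CBX7 peak numbered 2 in place of 4 within 2500 or 5000 bp of the start, at a score of 100 and at the list median, and those with a CBX6 replicate 1 peak numbered 2 in place of 10 when only peaks of both replicates counted. RING1B and CBX6 replicate 2 gave the same 2 genes under the alternatives run. The number of fragments behind each FPKM is unknown, so counting error could not be given.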
